A study of Mus musculus with 6 samples.

Results

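Growth differentiation factor 9 (Gdf9) and bone morphogenetic protein 15 (Bmp15) were followed in the neonatal mouse ovary through every array probe whose annotation carries 1 of these gene names. There were 4 such probes among the 8272 on the array: 3 cDNA clones of Gdf9, named BG067640, BG080261 and C86021, and 1 clone of Bmp15, named BG080725. All 4 had a value on all 6 arrays and were among the 8135 probes tested.

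Both genes encode secreted members of the transforming growth factor beta (TGF-beta) family that are made by the oocyte and act on the granulosa cells around it. They are produced as precursors, cleaved by proprotein convertases, and bind type I and type II serine/threonine kinase receptors, which pass the signal to SMAD proteins. In mice, follicles that lack Gdf9 stop growing at the primary stage, while loss of Bmp15 alone leaves females fertile but less so.

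The RNA was total RNA of whole ovaries from C57Bl/6J pups, taken within the first day after birth (day 0), at day 2 or at day 4. No treatment or mutation was named for any group. Day 2 and day 4 had 3 RNA samples each, which the labels call biological replicates without saying how many animals gave each RNA, so that the tests measure the spread between these samples. Each sample was hybridised with a day 0 RNA on a 2-colour spotted cDNA array, with the later day in Cy5 and day 0 in Cy3 on all 6 arrays. A dye effect of a probe and a change against day 0 therefore cannot be told apart. The deposited value is the log2 ratio of the later day over day 0, with 4 repeats for each probe and array, which were averaged. A log2 ratio of 0 means an equal signal at both ages. Ratios show changes and not levels, so that the 4 probes are compared by how far they moved from day 0.

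The 6 arrays held values for 5630 to 8272 probes, with the fewest on array 3 of day 4. Their median log2 ratios ran from -0.0027 to 0.0232. The third array of either age carried an identical day 0 RNA, so that 5 day 0 RNAs served the 6 arrays. Arrays 1 and 2 of day 2 ran against each other, with a Pearson correlation of -0.675 over 8272 probes, although both have the same dye orientation in the labels. Each was positively correlated with arrays 1 to 3 of day 4. The values were 0.27, 0.18 and 0.02 for day 2 array 1, and 0.11, 0.24 and 0.22 for day 2 array 2. The direction of the day 2 ratios is therefore not settled, and for each probe the day 2 mean follows below for either array reversed as well. A single estimate of spread was used per probe, so that these arrays also widen or narrow the standard errors at day 4. The zona pellucida genes and Foxl2 and Amh, markers of oocytes and granulosa cells, were not matched to a named probe, so that other genes served to check the tissue.

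At day 4, both growth factors had more signal than at day 0 on every array, as did 24.1% of the 5270 probes with values on all 6 arrays, and each Gdf9 clone had a larger ratio than Bmp15 on each of these arrays. Gdf9 clone BG080261 rose 7.61-fold and passed the test. The other Gdf9 clones stood at 10.4-fold and 3.52-fold and Bmp15 at 2.07-fold, and none of these passed it. In RNA of a whole ovary, a larger share of oocytes and more of the transcript per oocyte cannot be told apart.

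Clone BG067640 gave log2 ratios of 3.31, 3.42 and 3.42 on arrays 1 to 3 of day 4. These values lay close together, with an SD of 0.06 over the 3 arrays. Clone BG080261 gave 2.90, 2.79 and 3.10, with an SD of 0.16, and so was also alike on the 3 arrays. Clone C86021 gave 1.27, 1.43 and 2.74, with an SD of 0.81, so that array 3 stood apart above the other arrays. Bmp15 clone BG080725 gave 0.56, 1.43 and 1.16, with an SD of 0.44, and was lowest on array 1. The 4 repeats within an array differed less than the arrays did for C86021, with SDs of 0.09 to 0.37, whereas for BG067640 they differed more, with SDs of 0.13 to 0.32.

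Across all probes, limma called 39 of 8135 at day 4 against day 0, or 0.479%, all of them higher, at an adjusted p under 0.05 by the Benjamini-Hochberg method. Of the 4 growth factor probes, 1 was among them. Gdf9 BG080261 had a log2 difference of 2.93 (SE 0.18, 95% confidence interval 2.48 to 3.37, n = 3 arrays; limma, adjusted p = 0.00874), the rank 2 p-value of all probes. Gdf9 BG067640 had the larger estimate, 3.38 (SE 0.52, interval 2.10 to 4.66; limma, adjusted p = 0.0762). Its standard error carries the wide spread of its day 2 values, described further on. With the day 4 arrays fitted alone its limma adjusted p was 0.000998, in a fit that called 166 of 8135 probes. In the fit to both ages, its limma adjusted p was 0.384 without day 4 array 1, 0.364 without array 2 and 0.257 without array 3. Gdf9 C86021 stood at 1.81 (SE 0.34, interval 0.98 to 2.65; limma, adjusted p = 0.128). Bmp15 stood at 1.05 (SE 0.21, interval 0.53 to 1.57; limma, adjusted p = 0.15). Without adjustment, all 4 probes had a limma p under 0.05, as did 9.29% of all probes, 5.00% in the upward direction.

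The call for BG080261 was lost when any 1 array of day 4 was left out, with limma adjusted p-values of 0.0545 without array 1, 0.0645 without array 2 and 0.0584 without array 3, while its log2 difference stayed between 2.84 and 3.00. It was also lost without array 3 of both ages (2.84, adjusted p = 0.227) and when day 2 array 2 was reversed in sign (adjusted p = 0.13). By size, the 3 Gdf9 clones ranked 6, 13 and 71 among all probes at day 4 and Bmp15 ranked 156.

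**Figure D1:**
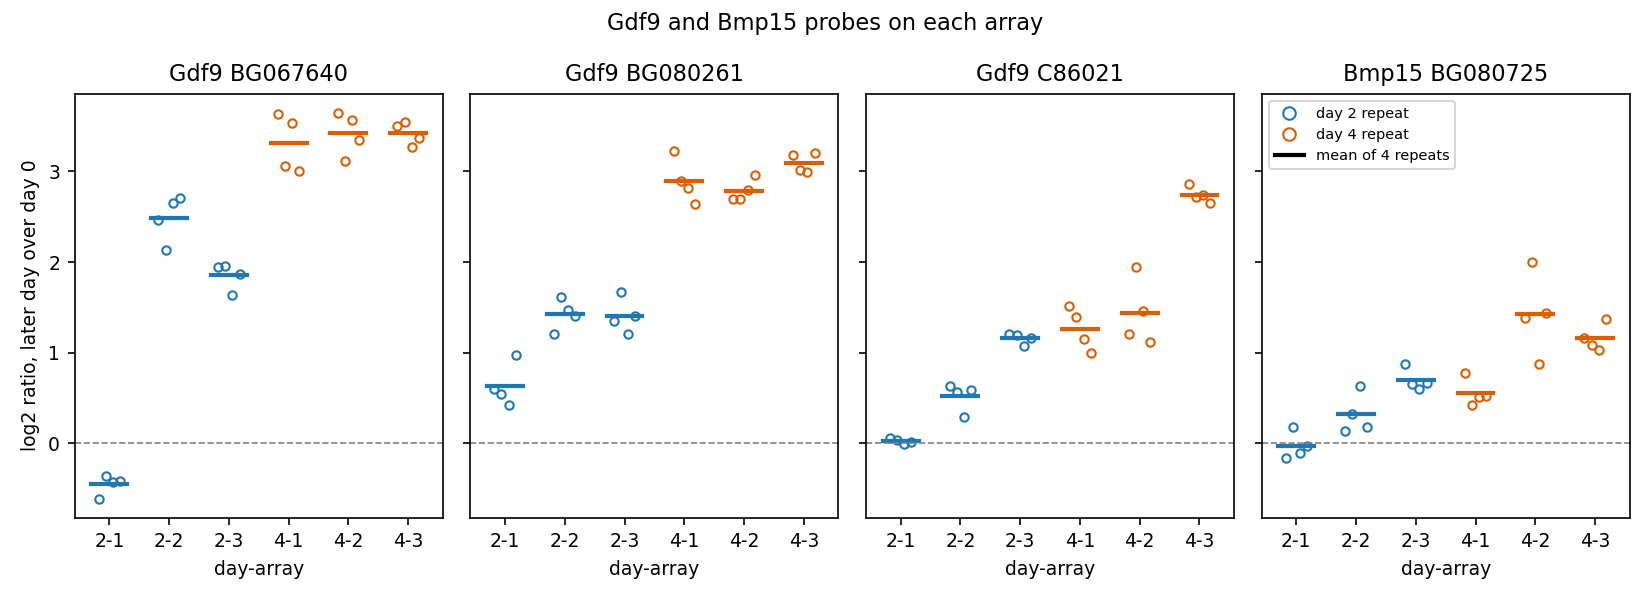
Log2 ratio of the later day over day 0 (vertical axis) for the 4 probes on each array (horizontal axis, day and array number); open circles are the 4 repeats and bars their mean, blue for day 2 and orange for day 4. All day 4 bars lie above 0, and the 3 Gdf9 clones have no day 4 bar at or below a day 2 bar.

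The RefSeq promoter windows used held that of Bmp15, which is shown here, but none for Gdf9. The promoters of these genes could therefore not be compared. The window is the 250 bases before the gene's start on the minus strand of build GRCm38.p6, chrX:6320725-6320974. Capitals mark matches to the motifs named after it.

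Bmp15 promoter: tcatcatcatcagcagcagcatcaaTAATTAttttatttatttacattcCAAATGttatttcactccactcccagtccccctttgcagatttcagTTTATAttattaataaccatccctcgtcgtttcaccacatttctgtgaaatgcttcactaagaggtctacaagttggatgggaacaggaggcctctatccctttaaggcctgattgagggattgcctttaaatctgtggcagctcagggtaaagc

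Its GC content was 40.4%, against a median of 52.4% over the promoter windows. On both strands, it was searched for TAATTG, a homeobox motif bound by the oocyte regulator NOBOX, for the related TAATTA, for the E-box CANNTG, bound by basic helix-loop-helix factors such as FIGLA, for AGGTCA, a nuclear receptor half-site such as that of NR6A1, and for the TATA box TATAAA. The motif TAATTA was added after the sequence had been read. It matched once, starting 225 bases before the gene's start, and 4.84% of 32851 promoter windows hold it. CANNTG matched once as CAAATG at 201 bases, and 66.2% of windows hold it. TATAAA matched once on the opposite strand, as TTTATA at 155 bases, and 12.4% of windows hold it. TAATTG and AGGTCA did not occur in these letters, against 7.17% and 14.0% of windows. The matches did not overlap one another. A match describes the letters only and says nothing of binding.

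At day 2, the Gdf9 and Bmp15 probes had means above 0, and no probe of any gene passed the test (0% of 8135 in limma, with 231 probes, or 2.84%, at an unadjusted p under 0.05). Of the 4 probes, BG067640 and BG080261 had such an unadjusted p, as did 1.72% of all probes in the upward direction. These counts depended on array 1 and array 2. The 231 probes became 1884 with array 1 reversed in sign, where BG067640 alone of the 4 had such a p, and 1120 with array 2 reversed, where none of the 4 had. Without array 1 they numbered 1464. Clone BG067640 gave log2 ratios of -0.45, 2.49 and 1.86 on arrays 1 to 3. This clone was below day 0 on array 1 and far above it on the other arrays, with an SD of 1.55. Clone BG080261 gave 0.64, 1.42 and 1.41, above day 0 on all 3 arrays, with an SD of 0.45. Clone C86021 gave 0.03, 0.52 and 1.16, and Bmp15 gave -0.03, 0.32 and 0.70. All 4 probes had their lowest day 2 value on array 1. BG080261 and C86021 were above 0 on all 3 day 2 arrays, as were 9.01% of the probes with 6 values, and on all 6 arrays, as were 4.57%. With array 1 reversed neither clone was above 0 on all 3 day 2 arrays, while BG067640 and Bmp15 were, and the shares of all probes became 22.1% and 10.1%. With array 2 reversed none of the 4 was, and the shares became 14.9% and 4.08%.

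The mean day 2 log2 differences were 1.30 for BG067640 (SE 0.52; limma, adjusted p = 0.966), 1.16 for BG080261 (SE 0.18; adjusted p = 0.609), 0.57 for C86021 (SE 0.34; adjusted p = 0.966) and 0.33 for Bmp15 (SE 0.21; adjusted p = 0.966). BG080261 corresponds to 2.23-fold and Bmp15 to 1.26-fold. The values depended on the direction of the 2 opposed arrays. With the sign of array 1 turned, the means were 1.60, 0.73, 0.55 and 0.35 in the same order. With the sign of array 2 turned they were -0.36, 0.21, 0.22 and 0.12, so that BG067640 changed direction. Without array 1, BG067640 had a mean of 2.17, and without array 2 a mean of 0.70. Bmp15 had a mean of 0.51 without array 1. Without array 3, C86021 had a mean of 0.27 and Bmp15 of 0.14.

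**Figure D2:**
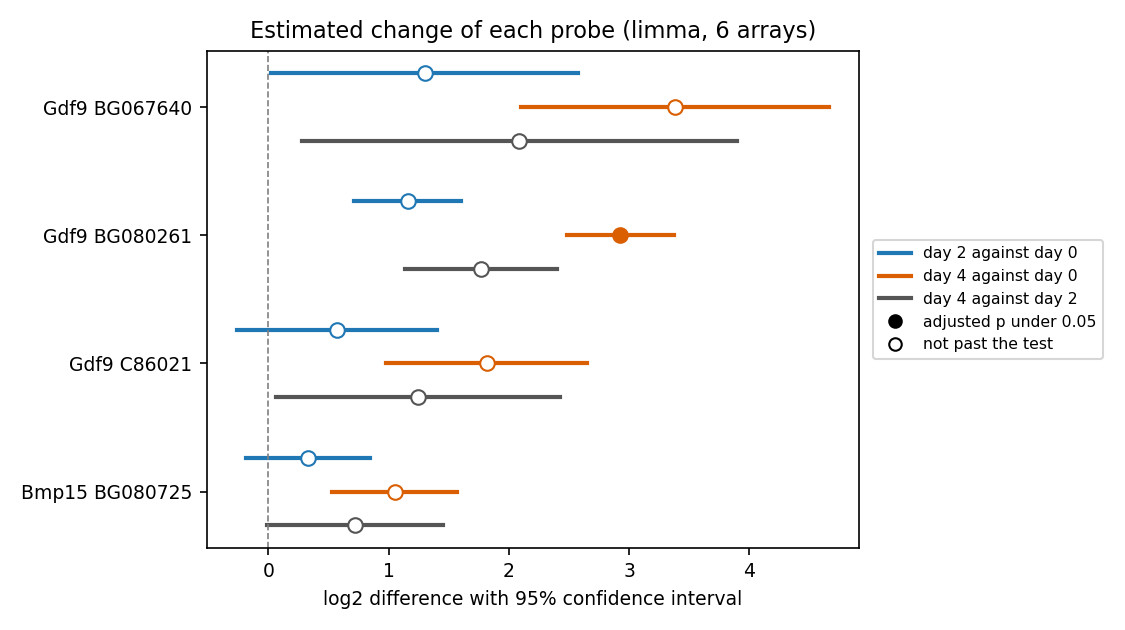
Log2 difference (horizontal axis) with its 95% confidence interval for each probe (vertical axis) in the 3 comparisons, from limma on 6 arrays; a filled circle marks an adjusted p under 0.05. The only filled circle is Gdf9 BG080261 at day 4 against day 0, at 2.93, and the intervals of BG067640 are the widest.

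Day 4 was set against day 2 through the day 0 RNA of each array, an indirect comparison that removes any dye effect shared by the 6 arrays. All 3 Gdf9 clones had every day 4 array above every day 2 array, whereas the ages overlapped for Bmp15. The gap between the lowest day 4 and the highest day 2 array was 0.82 for BG067640, 1.37 for BG080261 and 0.11 for C86021. For Bmp15, the lowest day 4 array (0.56) lay below the highest day 2 array (0.70). Of the 5270 probes with values on all 6 arrays, 4.14% had every day 4 array above every day 2 array. With day 2 array 1 or array 2 reversed, the 3 Gdf9 clones still had no overlap and Bmp15 still overlapped, while the share of all probes became 9.64% or 8.79%. None of the 4 differences passed a test. The exact permutation test of 3 against 3 arrays, 2-sided, gave p = 0.1 for each Gdf9 clone, the smallest this design allows, and p = 0.2 for Bmp15. It treats the 6 arrays as exchangeable, although array 3 of both ages shared a day 0 RNA. The limma estimates were 2.09 (SE 0.74) for BG067640, 1.77 (SE 0.26) for BG080261, 1.25 (SE 0.48) for C86021 and 0.72 (SE 0.30) for Bmp15. Their adjusted p-values were 1.00, 0.765, 1.00 and 1.00, and limma called 0% of 8135 probes (215 probes, or 2.64%, at an unadjusted p under 0.05). The 3 Gdf9 clones had such an unadjusted p, as did 1.97% of all probes in the upward direction. With day 2 array 1 reversed, 931 probes had such a p, and with array 2 reversed 721, and all 4 growth factor probes were among them in both cases. Without day 2 array 1 they numbered 594. The estimates moved as well. With day 2 array 1 reversed they were 1.78, 2.20, 1.26 and 0.70 in the same order, and with array 2 reversed 3.75, 2.72, 1.59 and 0.93. BG067640 stood at 1.21 without day 2 array 1, and C86021 at 0.78 without day 4 array 3.

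Array 3 of day 2 and of day 4 shared a day 0 RNA, so that their difference compares a day 4 with a day 2 sample against the same reference. It was 1.57 for BG067640, 1.69 for BG080261 and 1.58 for C86021 on the log2 scale, or 2.96-fold, 3.22-fold and 3.00-fold. On this pair the 3 Gdf9 clones gave nearly the same value, although they differed against day 0. Bmp15 gave 0.46, or 1.38-fold. Over the 5630 probes on both arrays this difference had a median of 0.00 and ran from -0.62 to 0.60 between the 5th and 95th percentiles. The Gdf9 clones exceeded 99.4%, 99.6% and 99.4% of the probes and Bmp15 91.1%. With 1 sample of each age, this difference has no replicate check.

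**Figure D3:**
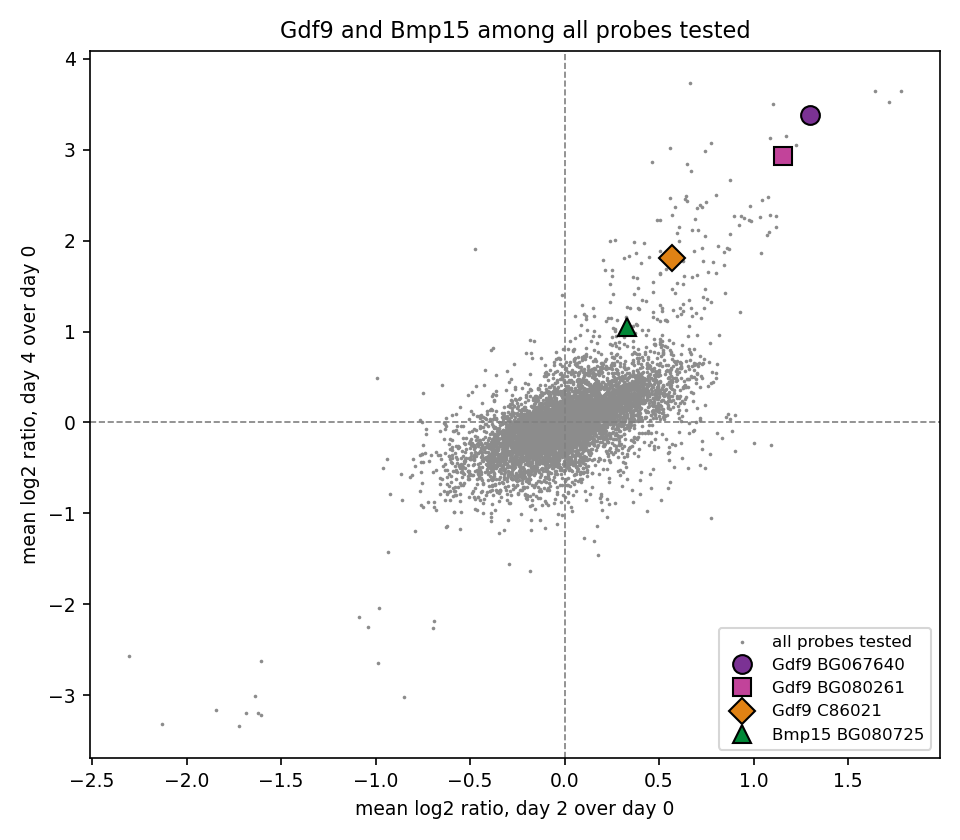
Mean log2 ratio of day 2 over day 0 (horizontal axis) and of day 4 over day 0 (vertical axis) for all 8135 probes tested (grey) and the 4 growth factor probes (coloured). Gdf9 BG067640 and BG080261 lie among the highest probes at day 4, C86021 lower and Bmp15 at 1.05, nearer to the bulk of the probes.

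Within each day 4 array, every Gdf9 clone had a higher log2 ratio than Bmp15. The mean excess was 2.33 for BG067640 (1.99 to 2.75 over the 3 arrays), 1.88 for BG080261 (1.36 to 2.34) and 0.77 for C86021 (0.01 to 1.58). C86021 and Bmp15 were thus nearly equal on 1 array. At day 2 the mean excess was 0.97 (-0.42 to 2.17), 0.83 (0.67 to 1.10) and 0.24 (0.06 to 0.46). With day 2 array 1 reversed it was 1.25, 0.38 and 0.20, and with array 2 reversed -0.48, 0.09 and 0.11, so that the order of BG067640 and Bmp15 at day 2 depended on the sign of array 2. The Gdf9 clones carry the same gene annotation and also differed among themselves, which bears on how the genes compare. Whether each clone reports only Gdf9 was not tested. At day 4, BG067640 exceeded C86021 by 1.57 (SD 0.77) and BG080261 by 0.46 (SD 0.16), and BG080261 exceeded C86021 by 1.11 (SD 0.67).

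The probes also differed in brightness, the mean log2 intensity of both channels. BG067640 was brighter than 62.6% to 87.4% of the probes of an array and BG080261 than 61.9% to 85.6%. C86021 was brighter than only 11.7% to 46.7% and Bmp15 than 12.2% to 29.7%, and both lay below the array median on all 6 arrays. The dimmer probes were those with the smaller ratios, and the part of brightness in the difference between the genes was not tested. The authors' flags marked 1 of the 24 values of these probes, Bmp15 on array 3 of day 4. Without the flagged value Bmp15 stood at 0.99 (SE 0.28; limma, adjusted p = 0.363).

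The other genes of the pathway were read from lists by role, with the brightest probe standing for each gene. No gene of these lists other than Gdf9 passed the limma test in any comparison, and the brightest Gdf9 probe, BG067640, did not pass it either. Among the other TGF-beta family ligands and their kin, 5 of those listed were measured, with a median log2 difference of 0.18 at day 4, against 0.00 over all probes. Tgfb2 stood at 0.41 (SE 0.22, n = 2 arrays) and Gdf3 at -0.11 (SE 0.19, n = 2 arrays). Bmp4 stood at 0.23 (SE 0.15) and Bmp5 at 0.07 (SE 0.10). Bmp1, a protease despite its name, stood at 0.18 (SE 0.40). Each was smaller than the estimates of the 4 growth factor probes.

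Receptors were represented by 3 of 17 genes. Bmpr1a, a type I receptor for bone morphogenetic proteins, stood at -0.55 (SE 0.31) at day 4, and its other probe at -0.27 (SE 0.21). Acvr2b, a type II activin receptor, stood at -0.23 (SE 0.14), and Tgfbr3, the co-receptor betaglycan, at 0.24 (SE 0.38). The brightest probe of each of these receptors had values on only 2 day 4 arrays. The type II receptor of GDF9 and BMP15, Bmpr2, was not matched to a named probe. Of the SMAD list, 2 of 14 genes were measured. Smad4, the common partner SMAD, stood at -0.17 (SE 0.16). Smurf2, a ubiquitin ligase of the pathway, stood at -0.24 (SE 0.24, n = 2 arrays). Of the secreted antagonists and binding proteins, Fstl3, a follistatin-like activin antagonist, stood at 0.09 (SE 0.11). Twsg1, which binds bone morphogenetic proteins, stood at -0.06 (SE 0.39), and its other probe at 0.19 (SE 0.25). The convertase Pcsk5 stood at 0.19 (SE 0.12). None of these genes passed the test.

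Of 20 genes known to respond to these ligands in follicle cells, 3 were measured. At day 4, Ptges, a prostaglandin E synthase, stood at 0.87 (SE 0.21, n = 2 arrays; limma, adjusted p = 0.274). Star, which carries cholesterol into mitochondria for steroid synthesis, stood at 0.52 (SE 0.30) and Id1, a target of bone morphogenetic protein signalling, at -0.55 (SE 0.53). Of the oocyte transcription regulators, Nr6a1, a nuclear receptor known to repress both genes, stood at -0.05 (SE 0.11). Its other probe stood at 0.07 (SE 0.18, n = 2 arrays). Ybx2, a germ cell RNA-binding protein, stood at 0.02 (SE 0.23). Foxo3, which restrains the activation of primordial follicles, stood at -0.31 (SE 0.13, n = 2 arrays). None of these passed the test.

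Other oocyte genes also had positive log2 differences at day 4. Of 31 oocyte markers listed, 14 were measured, and all 14 had a positive log2 difference at day 4, with a median of 1.61, against 49.8% of all probes. This and the other marker lists were chosen with earlier results of these data known, so that such counts are a description only. Of the 14, 4 passed the limma test by the brightest probe at an adjusted p under 0.05, as did 0.479% of all probes. These were Nlrp14, a maternal NLR family gene, at 3.64 (SE 0.41), Oas1d, an oocyte member of the oligoadenylate synthetase family, at 3.05 (SE 0.30), Astl, the egg protease ovastacin, at 2.87 (SE 0.23), and H1f8, the oocyte linker histone, at 2.39 (SE 0.12). Gdf9 clones BG067640 and BG080261 lay within this range and C86021 (1.81) below it. Bmp15, at 1.05, lay below the median of the list. By the brightest probe it was near Btg4 (0.95, SE 0.32) and Oosp1 (0.90, SE 0.13). The other Btg4 probes stood higher, at 1.97 (SE 0.25) and 1.52 (SE 0.19). Other probes of Btg4 and of Oas1c did pass the test, so that the count depends on the probe chosen. At day 2, 11 of the 14 were positive, with a median of 0.25, against 52.4% of all probes, and none passed the test. With day 2 array 1 reversed 11 were positive (median 0.24), and with array 2 reversed 6 were (median -0.03), against 50.7% of all probes in both cases. The part of the oocytes' share of the ovary in the Gdf9 and Bmp15 values was not tested.

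Markers of other ovarian cells had lower medians than the oocyte markers, a difference that was not tested. At day 4 the median log2 difference was 0.33 for 5 granulosa genes, 0.32 for 4 theca and steroidogenic genes and 0.55 for 4 stroma and smooth muscle genes. The granulosa genes went both ways, with 3 of 5 above 0. Cdkn1b, a cell cycle inhibitor, stood at 0.75 (SE 0.17, n = 2 arrays). The keratin genes Krt8 and Krt18 stood at -0.96 (SE 0.41) and -0.55 (SE 0.19). The other Krt18 probe stood at -1.63 (SE 0.23, n = 2 arrays) and the other Krt8 probes at -1.01 (SE 0.22, n = 2 arrays) and -0.89 (SE 0.39). The median was -0.44 for 3 endothelial genes, -0.27 for 2 epithelial genes and -0.72 for 6 blood genes, all 6 of which were below 0. No gene of these lists passed the test in either direction.

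**Figure D4:**
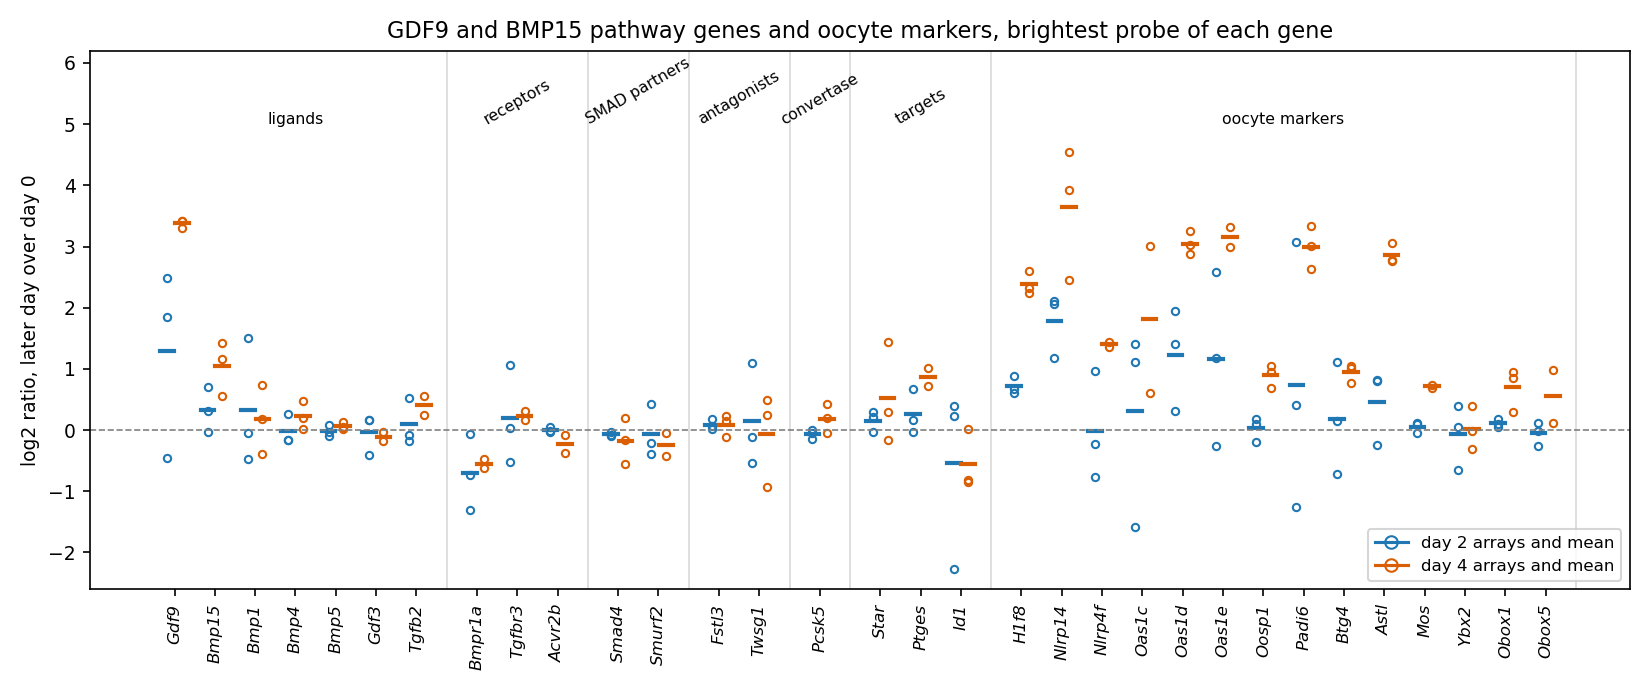
Log2 ratio of the later day over day 0 (vertical axis) for measured genes of the pathway lists and the oocyte markers (horizontal axis). Each gene is shown by its brightest probe. The oocyte transcription regulators are left out, except Ybx2, which is also an oocyte marker. Circles are arrays and bars their means, blue for day 2 and orange for day 4. Gdf9 and many oocyte markers lie well above 0 at day 4, and Bmp15 has a mean of 1.05. The day 4 means of the remaining ligands, receptors, SMAD partners and antagonists run from -0.55 (Bmpr1a) to 0.41 (Tgfb2).

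Genes with the profile most like Gdf9 and like Bmp15 were sought among 3003 named probes with values on all 6 arrays, by the root-mean-square difference of the log2 ratio over the arrays. For Gdf9, taken as the mean of its 3 clones, the nearest was Ddias, a suppressor of apoptosis after DNA damage, at 0.213. Its ratios were -0.19, 1.33 and 1.49 at day 2 and 2.42, 2.82 and 2.76 at day 4, against 0.07, 1.48 and 1.48, and 2.49, 2.55 and 3.09 for Gdf9. Ddias thus shared the low value on day 2 array 1. Next came Oas1d (0.393), Astl (0.429), Arhgef12 (0.475), and Zdhhc13, a palmitoyltransferase (0.477). Of these 5 genes, Ddias (2.67, SE 0.33; limma, adjusted p = 0.0422), Oas1d, Astl and Arhgef12 (2.44, SE 0.27; adjusted p = 0.031) passed the test at day 4 against day 0, and Zdhhc13 did not (2.43, SE 0.33; adjusted p = 0.0548). Of all probes, 0.479% passed it. The 5 genes were picked on these same ratios, so that their calls are no separate evidence. For comparison, the Gdf9 clones themselves lay 0.706, 0.303 and 0.804 from their own mean, and Bmp15 lay 1.33 from it.

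For Bmp15, the nearest gene was the lysosomal proton pump subunit annotated as ATPase, H+ transporting, lysosomal V0 subunit A isoform 4, at 0.206. It was followed by Pramel48 (0.245), Oosp1, an oocyte-secreted protein (0.317), Rspo2, a secreted enhancer of Wnt signalling (0.328), and Camta1, a calmodulin-binding transcription activator (0.339). Their day 4 log2 differences ran from 0.85 (Rspo2, SE 0.18) to 1.18 (Pramel48, SE 0.17), and none passed the test. The closeness is over 6 values from arrays that all 3003 probes share and is a description only.

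**Figure D5:**
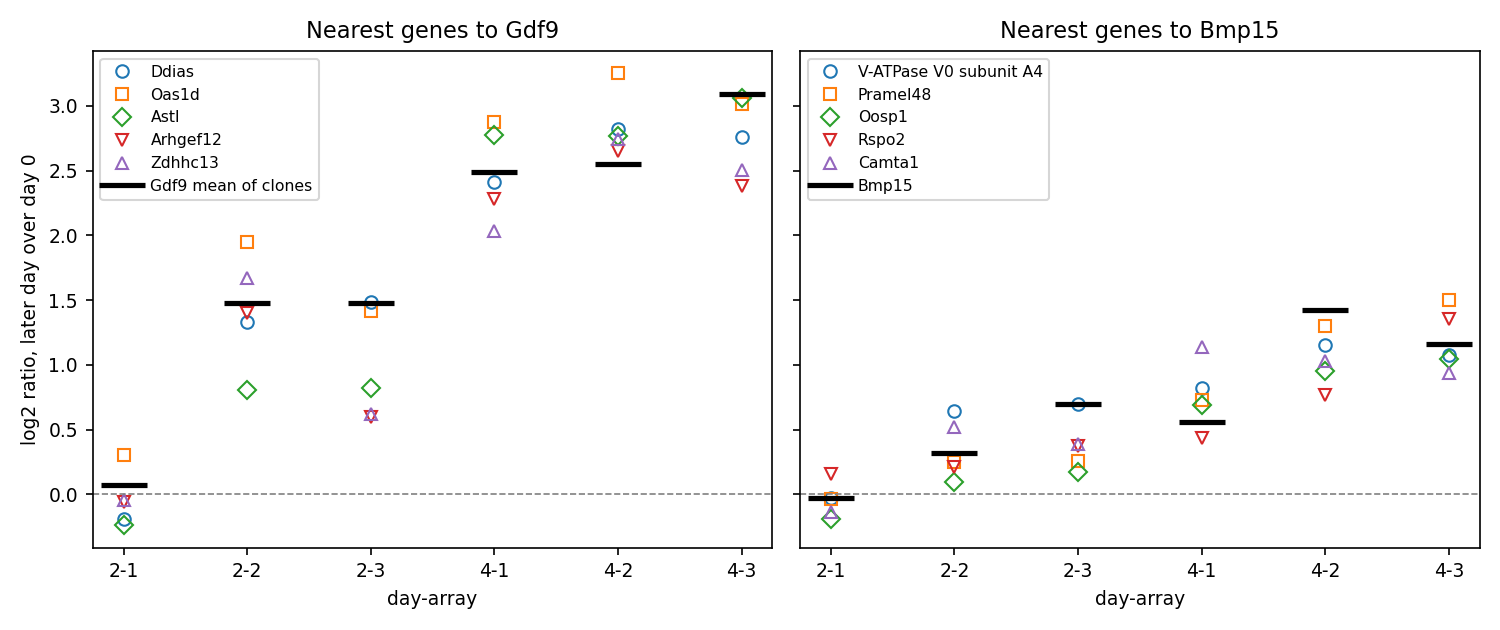
Log2 ratio of the later day over day 0 (vertical axis) on each array (horizontal axis, day and array number) for the 5 genes nearest to Gdf9 (left) and to Bmp15 (right); black bars are the mean of the 3 Gdf9 clones and the Bmp15 clone. At day 4 the Gdf9 group lies at 2.03 or above, and every point of the Bmp15 group lies lower.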

How the data were processed

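Per the file headers, the deposited files hold log2 ratios of Cy5 (later day) to Cy3 (day 0), 4 repeats for each probe and array. The authors also deposited a mean log2 intensity, flags that the headers do not define, and a value table of log2 ratios, used as an alternative. The submitters' processing notes name R 1.7.1. How background was corrected and ratios were normalized is not given in these sources.

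The repeats were averaged with no further normalization, and probes with 2 or more values at day 2 and at day 4 were tested. The fit was made in limma 3.58.1 (R 4.3.3) to all 6 arrays with a mean for each age, no trend, not robust, 2-sided, and Benjamini-Hochberg adjustment over 8135 probes with a threshold of 0.05. The code was tested on simulated data. The median SE was 0.19 at day 4 and 0.17 at day 2. The number of arrays limits the precision. Exact permutation tests used SciPy 1.17.1.

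Members were taken by annotation whatever their values. Genes of the lists were named by role or past the test, and the 5 nearest genes by likeness. The members and lists were chosen with earlier results of these data known. Symbols came from a RefSeq mouse table for 1614 probes, by hand for 66 and by annotation name for 3034, and 3558 had none. Clones were not placed on the genome. Motif letters came from RefSeq promoter windows of GRCm38.p6. Alternatives covered normalization, repeats, flags, filters, the variance model, blocks, array sign and arrays left out.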

Additional observations from a re-analysis of the deposited data

How the results depend on the processing

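For day 4 against day 0, the count of 39 probes called by limma became 96 with scale normalization between arrays, 125 with an intensity trend, 374 with repeats kept as duplicates, 166 with the day 4 arrays alone, and 0 when day 2 array 2 was reversed in sign (897 at an unadjusted p under 0.05) or without array 3 of both ages (433). It ran from 0 to 71 with 1 array left out: 0 without any 1 array of day 4, 71 without day 2 array 1 and 16 without day 2 array 3. Repeats kept as duplicates, which counts repeats as if independent beyond a fitted correlation, gave 19 probes at day 2 and 57 for day 4 against day 2, where the trend gave 1. Gdf9 BG080261 kept its day 4 direction in all 23 alternatives (2.84 to 3.17) and its call in 18. It lost the call at 2.93 with the sign of day 2 array 2 turned, at 2.84 without array 3 of both ages, and at 2.84 to 3.00 with 1 day 4 array left out. Gdf9 BG067640 passed the day 4 test in 8 of 23 alternatives: at 3.67 with scale normalization, and at 3.38 without the dimmest probes, with the trend, with duplicates, with the day 4 arrays alone, with the sign of day 2 array 1 turned, without day 2 array 1 and without day 2 array 2 (3.37 to 3.42 over all single arrays left out). Gdf9 C86021 passed with scale normalization (1.85) and, at 1.81, with the trend and duplicates. Bmp15 passed with the trend and duplicates (1.05), and the filter on dim probes removed it. With duplicates, BG080261 also passed at day 2 (1.16) and, for day 4 against day 2, BG067640 (2.09) and BG080261 (1.77) passed. With the sign of day 2 array 2 turned, BG067640 reversed at day 2 (-0.36). The cause of these changes was not tested. With the replicate block the day 4 count was 21, and BG080261 kept an adjusted p of 0.0404. Deviations of arrays with the same number correlated at 0.365, 0.053 and 0.515 over 5270 probes, so that the numbers were not taken as pairs, and not every array correlated best with its own number. A random block for the shared day 0 RNA was not run with an estimated correlation, since none could be obtained. Run with a preset correlation of 0.5, chosen after seeing the data, this block changed no call of the 4 probes. Fits to the arrays of 1 age alone give no value for day 4 against day 2.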
